A study of Mus musculus and Acomys cahirinus with 2 samples.

Results

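Endothelial cells were taken from single-cell libraries of adult ear skin as the barcodes with at least 1000 UMIs (unique molecular identifiers, tags that count captured RNA molecules) and 200 genes that held at least 3 UMIs of Pecam1, Cdh5, Egfl7, Emcn and Plvap together and under 2% of their UMIs on the keratin gene Krt10. In the Mus library mitochondrial genes also had to stay at or below 20% of UMIs. The rule found 573 cells among 16278 kept barcodes. They were 247 of 6835 barcodes in Acomys, which is 3.61% (exact 95% Clopper-Pearson interval 3.18 to 4.08), and 326 of 9443 in Mus, which is 3.45% (3.09 to 3.84). The study profiled ear skin of Acomys cahirinus, the Cairo spiny mouse, which can regenerate ear holes, and of Mus musculus, the house mouse, with the 10x Genomics 3' assay. The labels give each animal group as adult, from ear skin and at day 0, while the series text speaks of injured ears; they give no strain, sex or number of animals. Each species had 1 library, so no test was made, and species, animal, library and reference annotation cannot be told apart in any difference between them. All intervals are exact at 95%, and they cover only the error of counting.

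Endothelial cells line blood and lymphatic vessels as a single sheet. They hold the barrier between blood and tissue through adherens and tight junctions, take up fatty acids and hormones, set vessel tone, and offer the adhesion molecules by which leukocytes leave the blood. Arteries, capillaries, veins and lymphatics each have their own set of receptors and transcription factors, steered by VEGF, angiopoietin, Notch and BMP signals. In skin, postcapillary venules are the main site of leukocyte exit, and lymphatic endothelium collects fluid and migrating dendritic cells.

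Acomys endothelial cells held 1005 to 15669 UMIs with a median of 2497 and a median of 1022 genes. Mus endothelial cells held 1020 to 34920 UMIs with a median of 3077.5 and a median of 1378.5 genes. The median of the other kept barcodes was 5542 UMIs in Acomys and 10077 UMIs in Mus. Levels are given as CPM, the UMIs of a gene scaled to a total of 1000000 UMIs over the 15710 gene symbols shared by both gene lists, which held 65.2% of the endothelial UMIs in Acomys (455675 UMIs) and 63.5% in Mus (819519 UMIs). No barcode was called endothelial in both libraries, and 68 barcode sequences were kept in both. The 5 selecting genes are given as a description only. Egfl7 stood at 950.2 CPM in Acomys against 1524 CPM in Mus, Pecam1 at 336 against 885 CPM, Cdh5 at 167 against 348 CPM, Emcn at 1262 against 772 CPM and Plvap at 52.7 against 1872 CPM. Plvap, which forms the diaphragms of fenestrae and caveolae, had a UMI in 23 of 247 Acomys cells and in 217 of 326 Mus cells. The rule therefore rested on Emcn, Egfl7, Pecam1 and Cdh5 in Acomys, and on these genes with Plvap in Mus.

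The label was checked with 20 endothelial genes outside the rule, of which 19 have a row in both gene lists (Robo4 has none in the Acomys list). At least 2 UMIs of them were present in 241 of 247 Acomys cells and in 325 of 326 Mus cells. The edge of the rule differed between the libraries. Of Acomys barcodes with 3 UMIs of the rule genes, just inside it, 66 of 69 (95.7%) held at least 2 UMIs of these markers, and of those with 2 UMIs, just outside it, 105 of 126 (83.3%) did. In Mus the numbers were 24 of 24 (100%) inside and 23 of 64 (35.9%) outside. The other cells of Acomys thus held more barcodes with endothelial markers than those of Mus, and their levels of endothelial genes include these barcodes. At the Krt10 edge the rule left out 6 barcodes in Acomys and 10 in Mus.

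Those 19 markers were far above the other cells of the same library, as the plot of identity markers shows. Of 13 markers that reached 30 CPM and 20 UMIs in Acomys endothelial cells, 13 were at least 4-fold above other Acomys cells, against 11% of all 2926 genes at that level. In Mus, 19 of 19 were, against 13.6% of 4909 genes. Since the cells were chosen by endothelial genes, these counts describe them and test nothing. Ramp2, the subunit that makes the calcitonin-like receptor respond to adrenomedullin, stood at 1839 CPM in endothelial and 36 CPM in other Acomys cells, and at 1027 and 7.01 CPM in Mus. Cldn5, the tight junction claudin of endothelium, stood at 1380.4 and 54.7 CPM in Acomys, and at 1930.4 and 9.88 CPM in Mus. Vwf, the platelet-binding von Willebrand factor, stood at 996 and 13.3 CPM in Acomys, and at 715 and 2.16 CPM in Mus. In every marker drawn, the interval of the endothelial level lay above that of the other cells in both libraries. Ramp2 had a UMI in 89.5% of Acomys and 77.9% of Mus endothelial cells, or 67.7% and 47.3% after thinning each cell to 1000 UMIs. In other cells its share was 9.58% in Acomys and 3.52% in Mus, or 4.05% and 0.81% thinned.

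**Figure D1:**
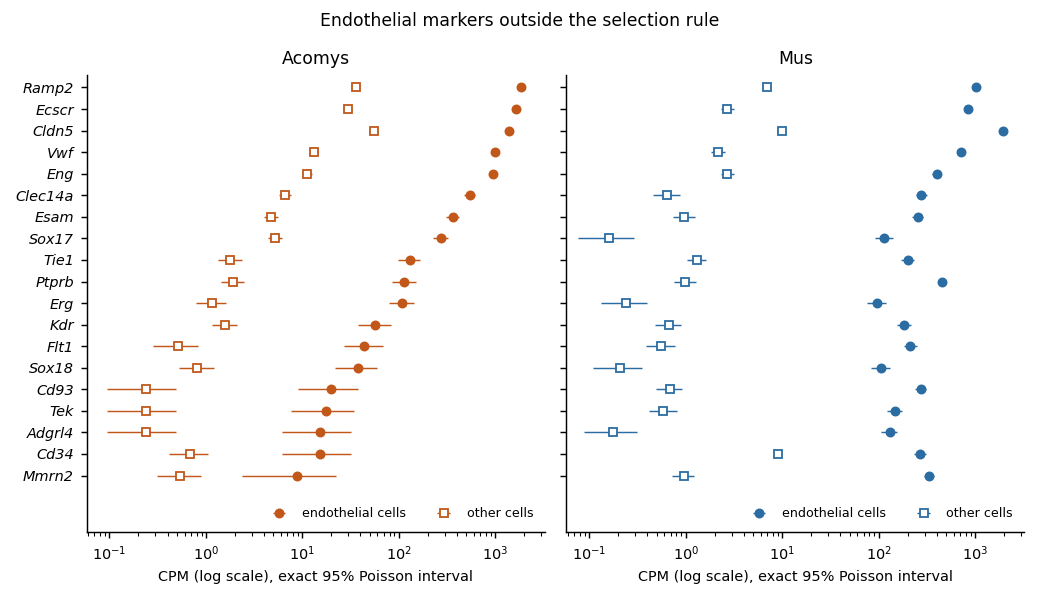
CPM on a log scale of the 19 endothelial markers outside the selection rule, in endothelial cells (filled circles) and other kept barcodes (open squares) of Acomys (left) and Mus (right), with exact 95% Poisson intervals as lines. The filled circles lie right of the open squares for all 19 markers in both panels, and Cd34 and Mmrn2 stand at 15.4 and 8.78 CPM in Acomys, against 268 and 333 CPM in Mus.

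The 25 genes with the highest endothelial over other ratio in both libraries, ranked by the lower of the 2 lower interval bounds, held adhesion molecules, receptors, junction proteins and transcription factors of endothelium. Selp, the P-selectin on which leukocytes roll, stood at 151 CPM in Acomys (118 to 192) against 165 CPM in Mus (138 to 195), and was 159.8-fold (102 to 258) above other cells in Acomys and 371-fold (245 to 579) in Mus. Ackr1, the venular chemokine-scavenging receptor, stood at 1843 CPM in Acomys (1721 to 1972) against 883 CPM in Mus (820.3 to 950.2), with ratios of 113-fold (101 to 127) and 480.1-fold (394 to 589). Both genes stood over 100-fold above other cells at the lower bound in each library.

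Fabp4, the fatty acid carrier of capillary and venular endothelium, stood at 26519 CPM in Acomys (26048 to 26996) against 8954 CPM in Mus (8750.3 to 9161), and was 98.3-fold (95.6 to 101) above other cells in Acomys and 555-fold (519.7 to 593) in Mus. Surface receptors followed. Eng, the endoglin co-receptor for BMP9, stood at 952 CPM in Acomys (865 to 1046) against 400.2 CPM in Mus (358 to 446), with ratios of 85-fold (73.5 to 98.4) and 148-fold (123 to 179.7). Clec14a, a C-type lectin receptor of endothelium, stood at 542 CPM in Acomys against 277 CPM in Mus, S1pr1, the sphingosine 1-phosphate receptor that tightens the barrier, at 325 against 177 CPM, Tie1, an orphan partner of the angiopoietin receptor, at 129 against 200.1 CPM, and Ecscr, an endothelial surface regulator of VEGF responses, at 1635 against 833 CPM. Their endothelial over other ratios ran between 55 and 81.3 in Acomys and between 154 and 437 in Mus. Junction members were Esam (362 against 254 CPM) and Jam2 (384 against 350.2 CPM), both immunoglobulin-type adhesion proteins. Transcriptional regulators were Erg, the ETS factor that maintains endothelial identity (108 against 95.2 CPM), Meox2, a homeobox factor (169 against 207 CPM), Hoxd10 (79 against 104 CPM) and Ldb2, a LIM-domain cofactor (373 against 85.4 CPM). Secreted or ligand genes were Vwf, Lrg1, Fgl2, Lbp and Tnfsf10, and the rest were Tm4sf1, Gng11, Rasa4, Ramp2, Grrp1 and AU021092. The Acomys over Mus ratio of these 25 genes ran from 0.0595 (Lrg1) to 4.37 (Ldb2), so genes marking endothelium in both libraries did not stand at equal levels in them.

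Promoter letters are shown for the first 3 genes of that ranking with an entry in RefSeq's table of promoters, which matched 14 of the 25, because ETS factors such as Erg are known to bind many endothelial promoters. Each is the mouse sequence (GRCm38.p6) from 250 bases before to 50 after the gene's start, read 5′ to 3′ on the gene's strand, and the capitals mark the ETS core GGAAG on either strand (CTTCC on the other). Selp lies at chr1:164115014-164115313 (+ strand), Ackr1 at chr1:173333454-173333753 (- strand) and Eng at chr2:32646345-32646644 (+ strand).
Selp: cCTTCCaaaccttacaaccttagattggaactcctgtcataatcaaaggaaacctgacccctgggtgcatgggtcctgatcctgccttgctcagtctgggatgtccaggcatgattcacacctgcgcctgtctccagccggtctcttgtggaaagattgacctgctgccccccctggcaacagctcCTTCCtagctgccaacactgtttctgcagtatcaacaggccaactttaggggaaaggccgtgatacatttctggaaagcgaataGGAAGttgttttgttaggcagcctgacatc
Ackr1: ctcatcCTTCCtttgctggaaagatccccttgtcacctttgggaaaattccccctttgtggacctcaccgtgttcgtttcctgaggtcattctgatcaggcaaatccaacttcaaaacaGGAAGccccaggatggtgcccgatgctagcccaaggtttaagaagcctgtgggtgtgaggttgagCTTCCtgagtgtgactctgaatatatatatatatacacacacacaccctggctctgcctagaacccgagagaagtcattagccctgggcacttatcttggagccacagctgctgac
Eng: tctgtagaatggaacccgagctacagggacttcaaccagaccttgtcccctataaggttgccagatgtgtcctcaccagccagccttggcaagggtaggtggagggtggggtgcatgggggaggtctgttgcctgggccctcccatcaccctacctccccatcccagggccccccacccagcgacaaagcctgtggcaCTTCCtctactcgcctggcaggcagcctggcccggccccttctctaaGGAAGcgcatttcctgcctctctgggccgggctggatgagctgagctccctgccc
The core occurred 3 times in Selp, 3 times in Ackr1 and 2 times in Eng, and none of these overlapped a match of the other motifs searched. Among the 14 matched promoters, 11 (78.6%) held GGAAG, against 71.1% of 27025 mouse promoters of the same length. The GATA letters AGATAA were found in 2 of 14 (14.3%), against 11.4%, the SOX letters ACAAT in 3 (21.4%), against 31.6%, and the E-box CANNTG in 12 (85.7%), against 72.1%, all searched on both strands. A match is a description of letters, and these shares lie near those of all promoters.

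Marker genes divided the endothelial cells into vessel classes, set by at least 2 UMIs of a short list of genes: Ackr1, Selp, Sele and Vwf for venous cells, Gja4, Gja5, Sema3g, Hey1, Bmx, Dll4, Efnb2 and Sox17 for arterial cells, and Prox1, Lyve1, Mmrn1, Flt4, Reln, Tbx1 and Nts for lymphatic cells, with lymphatic taking precedence. The lists and the minimum were chosen after the data were seen, and the classes are ranges of marker UMIs, not cell types. Cells of venous markers numbered 154 of 247 in Acomys (62.3%, 56.0 to 68.4) and 145 of 326 in Mus (44.5%, 39.0 to 50.1). Cells of arterial markers numbered 37 (15%, 10.8 to 20.1) and 28 (8.59%, 5.78 to 12.2). Both kinds of marker together were present in 5 Acomys cells and 15 Mus cells. No class was reached by 41 Acomys cells (16.6%) and 48 Mus cells (14.7%), whose median UMI totals of 1751 and 1598.5 were below those of the other classes. The map of marker UMIs per cell shows these blocks, which most of the genes drawn were used to set.

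**Figure D2:**
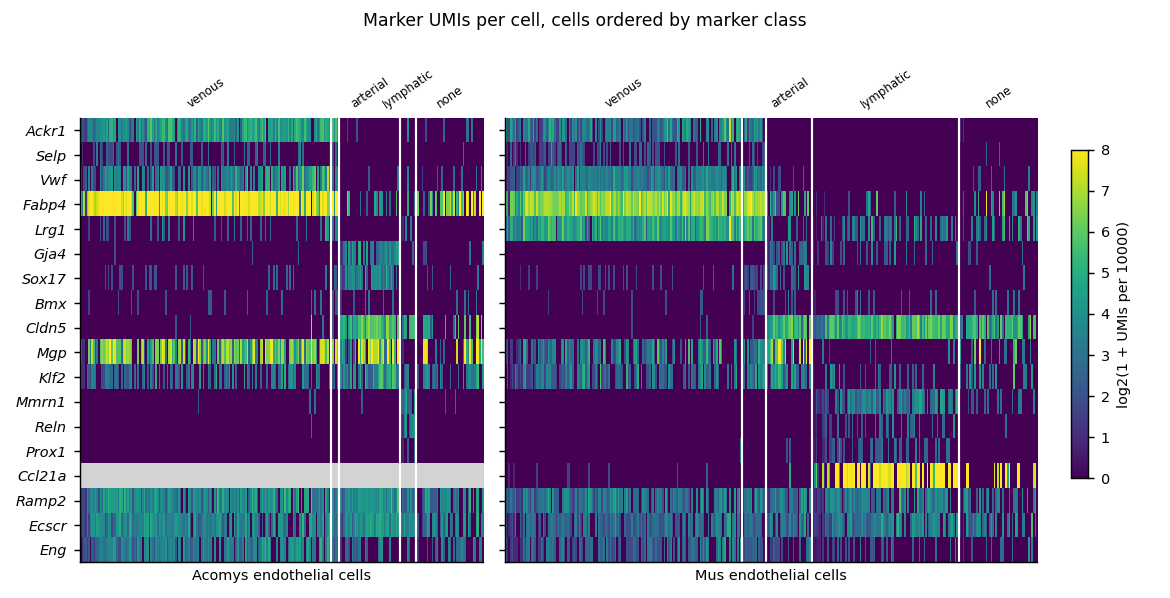
UMIs of 18 genes in each endothelial cell of Acomys (left) and Mus (right), as log2 of 1 plus the UMIs scaled to a fixed total per cell, with colours capped at the top of the scale. Columns are single cells ordered by marker class (white lines; the unlabelled narrow block holds cells of both arterial and venous markers), and grey marks Ccl21a, which has no row in the Acomys list; the lymphatic block holds 10 Acomys cells and 90 Mus cells.

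The median venous cell held 7 UMIs of the venous genes in both libraries and 0 UMIs of the arterial and lymphatic genes. The median arterial cell held 4 arterial UMIs in Acomys and 4.5 in Mus, and 0 of the other kinds. The median lymphatic cell held 5 lymphatic UMIs in both libraries, with 0 arterial UMIs in Acomys and 1 in Mus. The arterial genes had a UMI in 2 of 10 lymphatic cells of Acomys and 48 of 90 of Mus, and the lymphatic genes had one in 1 of 37 arterial cells of Acomys and 8 of 28 of Mus. The kinds of marker therefore overlapped in some cells of both libraries. In Acomys the arterial call rested on Gja4, Sox17, Hey1, Bmx and Efnb2, since Gja5, Sema3g and Dll4 had no UMI there, whereas Mus cells held 18, 21 and 21 UMIs of those genes. Many cells lay near the minimum. A single arterial UMI was present in 59 Acomys and 82 Mus cells and exactly 2 in 12 and 21, while for venous genes 17 and 16 cells held 1 UMI and 9 and 9 held 2.

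Cldn5, Fabp4 and Klf2, which were not used for the classes, kept their order across them in both species, as the plot of levels by class shows. Mgp and Igfbp7, given below, did not. Cldn5 stood at 6079 CPM in arterial, 2531 in lymphatic and 73 in venous cells of Acomys. In Mus it stood at 4734 CPM in arterial, 4267 in lymphatic and 7.59 in venous cells. Venous cells therefore lacked nearly all Cldn5, with 21 UMIs in 4 of 154 Acomys cells and 3 in 3 of 145 Mus cells. The lymphatic levels of Acomys lean on barcodes of 15669 and 10933 UMIs, which held 0 and 7 UMIs of Cldn5. The other Acomys lymphatic cells held 1711 to 2897 UMIs, and this limit holds for every lymphatic level of Acomys given here.

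Fabp4 was highest in venous cells. It stood at 38322 CPM in venous, 1101 in arterial and 367 in lymphatic cells of Acomys, and at 15369, 2410.4 and 163 CPM in those of Mus. Klf2, the transcription factor induced by laminar flow, stood at 2423 CPM in arterial, 737 in venous and 257 in lymphatic cells of Acomys, and at 1833, 906 and 262 CPM in those of Mus. Both genes kept the same order of classes in the libraries. Icam1, the leukocyte integrin ligand, had 47 UMIs in venous cells of Acomys and 58 in those of Mus, against 0 in arterial cells of either.

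Mgp, a matrix protein that inhibits calcification and BMP signals, differed in its distribution. It stood at 9878 CPM in venous, 12364 in arterial and 36.7 in lymphatic cells of Acomys. In Mus it stood at 1204 CPM in venous, 10205 in arterial and 81.5 in lymphatic cells. Venous Mgp was thus 8.2-fold (7.44 to 9.06) higher in Acomys, while the arterial levels lay close to each other. Emcn, the sialomucin used in the selection, and Plvap were mainly venous among the Mus cells of venous and arterial markers, and Plvap stood at 73 CPM in Acomys venous cells and 3115 CPM in Mus venous cells.

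**Figure D3:**
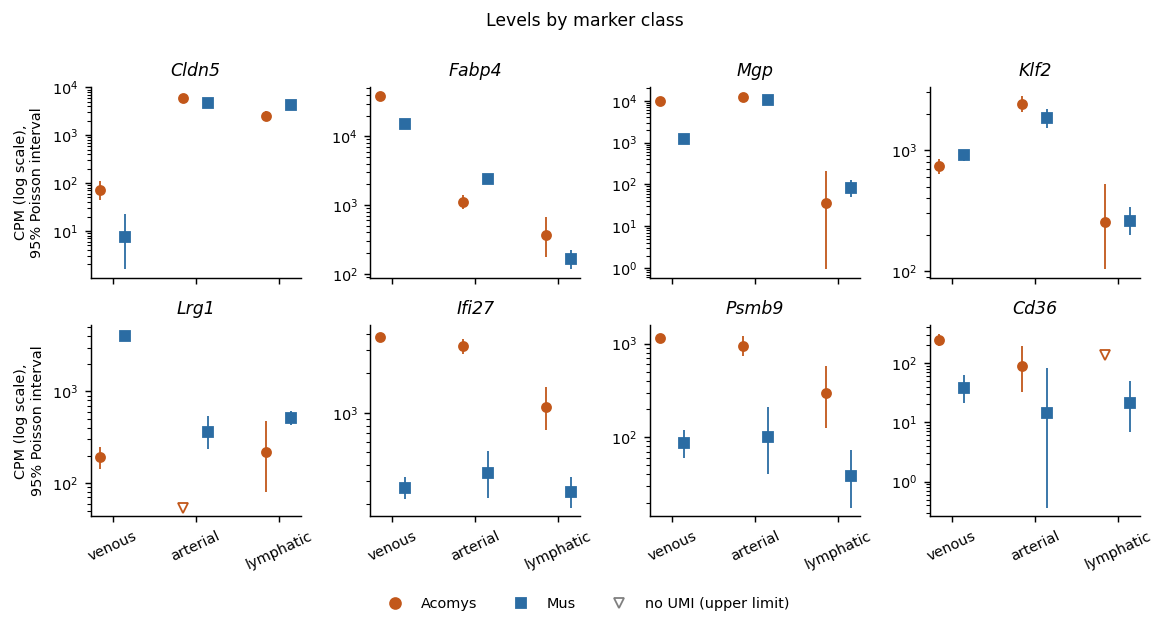
CPM on a log scale with exact 95% Poisson intervals of 8 genes in cells of venous, arterial and lymphatic markers, in Acomys (orange circles) and Mus (blue squares); an open triangle marks the upper limit for a class without a UMI. Cldn5 is low in venous cells of both species, Fabp4 is high there, Lrg1 is highest in Mus venous cells among the classes drawn, and Ifi27 and Psmb9 are higher in Acomys in every class.

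Cells of lymphatic markers made up 10 of 247 Acomys cells (4.05%, 1.96 to 7.32) and 90 of 326 Mus cells (27.6%, 22.8 to 32.8). At least 1 UMI of the lymphatic genes was present in 7.29% of Acomys and 38.7% of Mus endothelial cells, or 5.0% and 27.6% after thinning to 1000 UMIs. In other cells this share was 5.90% in Acomys and 19.5% in Mus, or 1.58% and 2.99% thinned. Near the minimum, 8 Acomys and 36 Mus cells held 1 lymphatic UMI, and 1 and 21 held 2. Among barcodes that passed the rule, the share with lymphatic markers was therefore lower in Acomys in these libraries, with and without thinning. Just outside the rule, 83.3% of Acomys and 35.9% of Mus barcodes with 2 UMIs of its genes held identity markers. The lymphatic share of those barcodes was not measured.

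The 10 Acomys cells were marked by Mmrn1, a multimerin of lymphatic endothelium, with 31 UMIs in 9 cells, and by Reln, the secreted protein reelin, with 21 UMIs in 9 cells, and 8 cells held both. They held 3 UMIs of Prox1, the master transcription factor of lymphatic fate, 2 of Flt4, the VEGF-C receptor, 1 of the hyaluronan receptor Lyve1 and 0 of Nts. The 90 Mus cells held 183 UMIs of Mmrn1 in 73 cells, 52 of Reln in 31 and 60 of Prox1 in 42. Within lymphatic cells Mmrn1 stood at 1137 CPM in Acomys against 785 CPM in Mus, and Prox1 at 110.0 and 257 CPM. Both genes helped to set the class, so these levels describe the cells chosen and are not compared between the species. Mus also held Ccl21a, the chemokine that draws dendritic cells into lymphatics, which has no row in the Acomys list. At least 5 Ccl21a UMIs were present in 75 Mus cells, of which 63 were in the lymphatic class, 11 in no class and 0 in the venous class.

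Across the whole list of 5211 genes measured in endothelial cells (at least 30 CPM and 20 UMIs in the higher library, selecting genes left out), 655 were at least 2-fold higher in Acomys (12.6%) and 2048 at least 2-fold lower (39.3%). The median log2 ratio was -0.45 in endothelial cells and -0.32 for the same genes in other cells. Among 1362 genes at least 2-fold above other cells in the higher library, 220 were higher (16.2%) and 745 lower (54.7%). In venous cells alone, 576 of 3732 genes were higher (15.4%) and 1426 lower (38.2%). For 518 genes (9.94%) the ratio in endothelial cells lay at least 4-fold from that in other cells. Lower values in Acomys were thus common in this table. A count of lower genes in a group is read against 39.3%, or 54.7% for the 1362 genes above other cells, whose median log2 ratio was -1.27. A count within 2-fold is read against the share of genes outside the 12.6% and the 39.3%. The ratio in other cells is given beside many of the named genes. Where it is not given, a gap may be shared by the other cells.

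The genes furthest above Mus in Acomys endothelium included matrix, membrane and interferon-linked genes. Tspan8, a tetraspanin of the cell surface, had 391 UMIs in 155 of 247 Acomys cells and 8 UMIs in 6 of 326 Mus cells, which is 858 CPM in Acomys against 9.76 CPM in Mus. It was 87.9-fold (44.2 to 205) higher in Acomys endothelial cells and 6.52-fold higher in other cells. Efemp1, the matrix protein fibulin-3, had 163 and 3 UMIs, or 358 CPM in Acomys against 3.66 CPM in Mus, and was 97.7-fold (32.9 to 479) higher, against 3.29-fold in other cells. Efemp1 stood 5.56-fold above other cells in Acomys and at 0.187 of their level in Mus. Both genes were mainly venous in Acomys, with 329 and 135 of their UMIs in venous cells.

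Ifi27, an interferon-induced protein of a family of related genes, stood at 3316 CPM in Acomys (3151 to 3487) against 284 CPM in Mus (249 to 323), or 11.7-fold (10.2 to 13.4) higher in Acomys endothelial cells and 1.29-fold higher in other cells. It had a UMI in 95.5% of Acomys and 41.4% of Mus endothelial cells, or 83.4% and 16.3% thinned, and in 69.8% and 71.8% of other cells, or 24.6% and 16% thinned. Psmb9, a subunit of the immunoproteasome, stood at 974 CPM in Acomys (886 to 1069) against 76.9 CPM in Mus (59.1 to 98.4), or 12.7-fold (9.72 to 16.8) higher in endothelial and 1.92-fold higher in other cells. For both, the difference was larger in endothelial cells than in the rest of the ear. In venous cells alone Ifi27 was 14.1-fold (11.5 to 17.3) and Psmb9 13.3-fold (9.3 to 19.5) higher.

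Aqp7, the glycerol channel, had 40 UMIs in 30 Acomys cells and 0 in Mus, at least 24-fold higher against a floor of 3 counts in the group. Pdgfrl, a PDGF receptor-like protein (35 UMIs, at least 21-fold), Actr3b, an actin-related protein (24, at least 14.4-fold) and Pcdhgc3, a protocadherin whose cluster shares exons so that its counts are uncertain (36, at least 21.6-fold), also had 0 UMIs in Mus endothelial cells. Cnrip1, a cannabinoid receptor-interacting protein, stood at 320.4 against 17.1 CPM and was 18.8-fold (10.8 to 35.2) higher, against 9.29-fold in other cells. Mdk, the growth factor midkine, had 57 UMIs in Acomys and 3 in Mus, a ratio of 34.2 (11.1 to 171), and Fzd9, a Wnt receptor, 53 and 2, a ratio of 47.7 (12.6 to 404). These genes were also higher in other cells of Acomys, by 18.6-fold for Mdk and 5.9-fold for Fzd9. The 36 UMIs of Plac8 came from 7 Acomys cells of arterial markers, so they describe few cells.

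The genes furthest below Mus divide by what the other cells show. In 6 of the 12 the gene was nearly absent throughout the Acomys library. Cav1, caveolin-1, the coat of caveolae, had 3 UMIs in Acomys and 531 in Mus endothelial cells, or 6.58 CPM in Acomys against 648 CPM in Mus, and was 98.4-fold (33.5 to 479) lower, against 36.5-fold lower in other cells. Cav2, its partner, had 1 UMI and 311 UMIs, 173-fold (30.8 to 6852) lower, against 55.6-fold in other cells. Il6st, the gp130 receptor chain, stood at 11 against 910.3 CPM, 83-fold (35.4 to 256) lower, against 25.2-fold in other cells. Smim14 (1 and 358 UMIs, other cells 67.6-fold lower), Tsc22d1, a leucine zipper regulator (0 and 459, at least 85.1-fold lower, other cells 59.9-fold), and Igfbp4, an IGF-binding protein (0 and 327, at least 60.6-fold, other cells 77.9-fold), had the same pattern. For these 6 genes the low level was shared by the rest of the Acomys ear. In Acomys endothelial cells 33.6% of UMIs lay on identifiers without a symbol, and the part of the annotation in these ratios was not tested.

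Other genes were low in Acomys endothelium and present elsewhere in the Acomys ear. Cytl1, a secreted cytokine-like protein, had 19 UMIs in Acomys and 1460 in Mus endothelial cells, or 41.7 CPM in Acomys against 1782 CPM in Mus, 42.7-fold (27.3 to 71.2) lower. In other cells it stood at 195 CPM in Acomys against 125 CPM in Mus, which is 1.56-fold higher in Acomys. Its Mus UMIs lay in venous (2788 CPM) and arterial cells (1934 CPM) and hardly in lymphatic cells (21.4 CPM). Pglyrp1, a peptidoglycan-recognition protein, had 0 and 210 UMIs, at least 38.9-fold lower, against a ratio of 1.25 in other cells. Adm, the vasodilator adrenomedullin, had 0 and 185 UMIs, at least 34.3-fold lower, against a ratio of 2.34 in other cells.

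Aqp1, the water channel of vascular endothelium, had 6 UMIs in Acomys and 1342 in Mus, or 13.2 CPM in Acomys against 1638 CPM in Mus, 124-fold (57 to 339) lower, against 5.82-fold in other cells. In venous cells it was 163-fold (69.6 to 503) lower, so the gap was present within that class. Stmn2, a microtubule regulator of the stathmin family, had 1 UMI and 314 UMIs, 175-fold (31.1 to 6918) lower, against 2.22-fold in other cells. By contrast Adm and Igfbp5, another IGF-binding protein (1 and 273 UMIs, 152-fold (27 to 6017) lower), lay mainly in lymphatic cells in Mus. Mus venous cells held 0 Adm and 3 Igfbp5 UMIs, and Mus lymphatic cells held 131 and 201. All Acomys endothelial cells, 10 of which were lymphatic, held 0 Adm UMIs and 1 Igfbp5 UMI. Whether the number of lymphatic cells accounts for these gaps was not tested. Lrg1, a secreted modulator of TGF-beta signals, stood at 149 CPM in Acomys (116 to 189) against 2506 CPM in Mus (2399 to 2617), 16.8-fold (13.2 to 21.7) lower, and it was 21-fold (16.1 to 28) lower among venous cells, against 3.8-fold in other cells.

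Gene lists for vessel function were then read as counts of measured members, as the plot of list ratios shows. A log2 ratio uses a prior count of 0.5, and a median "at the bounds" sets genes without a UMI at the 3-count floor and uses no prior count. Of the 19 identity markers in both lists, all measured, 2 were at least 2-fold higher in Acomys (Eng and Sox17) and 9 at least 2-fold lower, with a median log2 ratio of -0.62. Sox17 also helped to set the arterial class, which held a larger share of the Acomys cells. The lower markers included Mmrn2, a matrix-anchored ligand of Clec14a (8.78 CPM in Acomys against 333 CPM in Mus, 37.9-fold (14.7 to 140.3) lower), Cd34, a sialomucin (15.4 against 268 CPM, 17.5-fold (8.34 to 44) lower), and Cd93, a lectin-like receptor (19.8 against 273 CPM, 13.8-fold (7.16 to 30.7) lower). In other cells Cd34 was also 13.4-fold lower, while Mmrn2 was 1.76-fold lower. Endothelial identity genes thus differed in both directions around a median of -0.62. The median was -0.45 for all genes and -1.27 for genes at least 2-fold above other cells in the higher library.

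**Figure D4:**
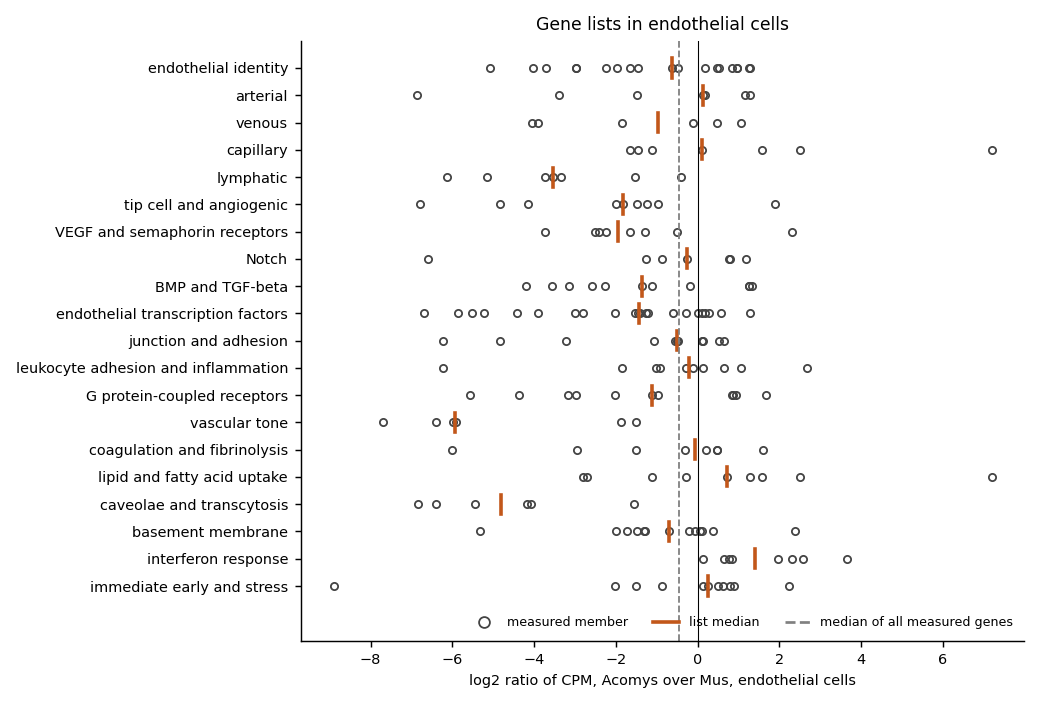
Log2 ratio of CPM, Acomys over Mus, in endothelial cells for the measured members of 20 gene lists (open circles, prior count 0.5; points of genes without a UMI in a library are not bounds), with the list median (orange bar) and the median of all 5211 measured genes (dashed line at -0.45). Caveolae and vascular tone lie furthest left with medians of -4.81 and -5.94, and interferon response lies right at 1.41.

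Growth factor receptors were mostly lower in Acomys. Of 11 genes of VEGF and semaphorin signalling in both lists, 8 were measured, 6 of them at least 2-fold lower and 1 higher, with a median log2 ratio of -1.95 (-0.30 in other cells). Kdr, the main VEGF-A receptor, stood at 57.1 CPM in Acomys (37.3 to 83.6) against 182 CPM in Mus (154 to 213), 3.19-fold (2.09 to 5.04) lower. Flt1, the VEGF-A decoy receptor, stood at 43.9 CPM in Acomys (26.8 to 67.8) against 212 CPM in Mus (182 to 246), 4.84-fold (3.04 to 8.12) lower. The ligand Vegfc, which drives lymphatic growth through Flt4, went the other way at 147 CPM in Acomys (114 to 187) against 29.3 CPM in Mus (18.8 to 43.6), 5.02-fold (3.11 to 8.37) higher and 4.01-fold (2.03 to 8.48) higher in venous cells. Receptors and this ligand therefore lay on opposite sides of Mus.

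In the angiopoietin system 4 of 7 genes were measured and 3 were at least 2-fold lower. Tek, the Tie2 receptor, stood at 17.6 CPM in Acomys (7.58 to 34.6) against 146 CPM in Mus (121 to 175), 8.34-fold (4.1 to 19.8) lower, and Ptprb, the phosphatase that restrains it, at 114 CPM in Acomys against 451 CPM in Mus, 3.96-fold (2.95 to 5.4) lower. Tie1 stood at 129 against 200.1 CPM, within 2-fold. The Tek gap was 9.35-fold (4.36 to 23.9) among venous cells. Tip cell and sprouting genes had 8 of 9 measured members lower and 1 higher, beside 39.3% lower over all measured genes. Their median was -1.83 (-1.91 at the bounds, and 0.85 in other cells). In venous cells 2 of 4 measured members were lower and 1 higher, with a median of -1.22. Apln, the peptide apelin of sprouting tips, had 0 UMIs in Acomys and 99 in Mus, at least 18.3-fold lower, and no UMI in other Acomys cells either. The higher member was Ctgf, a matricellular YAP target, at 327 against 87.9 CPM, 3.72-fold (2.79 to 5.0) higher in endothelial and 4.06-fold in other cells.

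Of 7 measured Notch genes, 4 lay within 2-fold, near the share over all measured genes, with a median of -0.26 (0.25 in other cells). This did not hold within the venous class, where 3 of 4 measured were at least 2-fold lower and 1 higher, with a median of -1.14, and without lymphatic cells the median was 0.30. Hes1, a Notch target, stood at 277 against 331 CPM, and Notch1 at 68 against 126 CPM. Among BMP and TGF-beta genes, 3 of 11 measured were at least 2-fold higher and 7 lower, with a median of -1.37 (-1.02 in other cells). The lower share was 39.3% over all measured genes and 54.7% over those at least 2-fold above other cells. The higher ones were Eng and the BMP-responsive inhibitors of differentiation Id2 (239 against 95.2 CPM) and Id3 (1742 CPM in Acomys (1623 to 1868) against 735 CPM in Mus (677 to 796), 2.37-fold (2.13 to 2.64) higher, other cells 0.818). The lower ones included the receptors Bmpr2 (6.58 against 142 CPM), Tgfbr2 (21.9 against 203 CPM) and Acvrl1, the ALK1 partner of endoglin (59.3 against 155 CPM), with the signal transducers Smad1 (26.3 against 165 CPM) and Smad5 (4.39 against 64.7 CPM). Eng and its partner receptor thus differed in opposite directions. Bmpr2 and Smad5 were also low in other Acomys cells, by 28.7-fold and 6.29-fold.

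Of 22 measured endothelial transcription factors, 1 was at least 2-fold higher and 14 were lower. The lower share was 39.3% over all measured genes and 54.7% over those at least 2-fold above other cells. The median was -1.44 (-1.47 at the bounds, and -0.07 in other cells). Factors with close levels were Erg (108 against 95.2 CPM), its ETS relative Fli1 (127 against 118 CPM), the blood and endothelial factors Gata2 (76.8 against 76.9 CPM) and Lmo2 (162 against 248 CPM), and Klf2 (989.7 against 810.2 CPM). Sox17, the arterial SOX factor, stood at 274 CPM in Acomys (228 to 327) against 113 CPM in Mus (91.6 to 139), 2.42-fold (1.83 to 3.2) higher over all endothelial cells. It is one of the genes that set the arterial class, which held 15% of Acomys and 8.59% of Mus cells. Its level within that class is therefore not compared. Epas1, the hypoxia factor HIF-2 alpha, stood at 4.39 CPM in Acomys (0.532 to 15.9) against 316 CPM in Mus (279 to 357), 72-fold (19.7 to 598) lower, against 4.49-fold in other cells. Nr2f2, the venous factor COUP-TFII, stood at 8.78 against 148 CPM, 16.8-fold (6.4 to 62.7) lower, and Ets1 at 4.39 against 116 CPM, 26.4-fold (7.11 to 221) lower. Nr2f2 was low also among Acomys cells of venous markers, with 4 UMIs in 154 cells against 70 in 145 Mus cells, although these cells were set by Ackr1, Selp, Sele and Vwf. In other cells Nr2f2 was 9.9-fold lower in Acomys.

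Of 11 measured junction genes, 7 lay within 2-fold, 4 were lower and 0 higher, with a median of -0.50 (0.52 in other cells). Over all measured genes 12.6% were higher and 39.3% lower. Esam stood at 362 against 254 CPM, Jam2 at 384 against 350.2 CPM, Icam2 at 397 against 256 CPM, and the catenins Ctnna1 at 283 against 265 CPM and Ctnnb1 at 272 against 398 CPM. F11r, the adhesion molecule JAM-A, was the widest exception, with 1 UMI in Acomys and a level of 2.19 against 246 CPM, 112-fold (19.9 to 4458) lower, against 20.7-fold lower in other cells.

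Leukocyte recruitment genes had 5 of 10 measured members within 2-fold (median -0.20, and -0.87 in other cells), near the share over all measured genes. Selp and Icam1 stood close, Icam1 at 103 CPM in Acomys (75.8 to 137) against 95.2 CPM in Mus (75.2 to 119). Ackr1 was 2.09-fold (1.89 to 2.31) higher in Acomys over all endothelial cells. It is one of the genes that set the venous class, which held a larger share of the Acomys cells, so its level within that class is not compared. Ccl7, a monocyte chemokine, stood at 72.4 against 11 CPM, but it was 80.9-fold higher in other Acomys cells. Cxcl12, the chemokine that retains CXCR4-bearing cells, stood at 129 against 159 CPM, near equal in endothelium, while in other cells it was 6.03-fold lower in Acomys.

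Barrier-crossing and vasoactive genes showed the widest gaps. All 6 measured caveolar genes of 7 in both lists were at least 2-fold lower, with a median of -4.81 (-5.12 at the bounds) and -4.36 in other cells. Ehd4, a membrane-remodelling ATPase, stood at 54.9 CPM in Acomys (35.5 to 81) against 942 CPM in Mus (877 to 1011), 17.2-fold (11.5 to 26.7) lower, against 10.3-fold in other cells, and Ehd2, which stabilises caveolae, at 4.39 against 239 CPM, against 35-fold lower in other cells. All 6 measured tone genes of 8 were lower as well (median -5.94, or -5.70 at the bounds, and -3.04 in other cells). Nos3, endothelial nitric oxide synthase, stood at 30.7 CPM in Acomys (16.8 to 51.5) against 90.3 CPM in Mus (70.9 to 113), 2.94-fold (1.65 to 5.64) lower, and Edn1, the vasoconstrictor endothelin-1, at 37.3 CPM in Acomys (21.7 to 59.7) against 139 CPM in Mus (115 to 167), 3.73-fold (2.23 to 6.62) lower. Ece1, the enzyme that matures endothelin, stood at 4.39 against 344 CPM, 78.4-fold (21.5 to 651) lower. Cav1 belongs to both lists, and the caveolar genes were about as low in the rest of the Acomys ear as in its endothelium.

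Among G protein-coupled receptors and their partners, 7 of 11 measured were lower and 1 was higher, with a median of -1.11 (1.04 in other cells). The lower share was 39.3% over all measured genes and 54.7% over those at least 2-fold above other cells. Ramp2 was 1.79-fold (1.62 to 1.97) higher in Acomys, while Calcrl, the receptor it partners, stood at 8.78 against 89.1 CPM, 10.1-fold (3.8 to 38.2) lower. The 2 subunits of the adrenomedullin receptor therefore differed in opposite directions, and Calcrl was 8.72-fold lower in other cells. The adhesion receptors Adgrf5 (13.2 against 297 CPM, 22.5-fold (10.2 to 62) lower) and Adgrl4 (15.4 against 129 CPM, 8.42-fold (3.95 to 21.5) lower) were low, with ratios in other cells of 0.51 and 1.36. S1pr1 stood at 325 against 177 CPM, 1.84-fold (1.45 to 2.32) higher.

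Lipid uptake genes were divided, with 4 of 9 measured at least 2-fold higher, 3 lower and a median of 0.72. The median was 1.99 in other cells, so the list lay further to the Acomys side there, and it turned to -0.12 in endothelial cells with Krt10 under 0.5% of UMIs. Relative to other cells, 2 members had a ratio at least 4-fold higher in endothelial cells and 5 at least 4-fold lower. Fabp4 was 2.96-fold (2.88 to 3.05) higher in Acomys, and 2.49-fold (2.42 to 2.57) among venous cells. Cd36, the fatty acid translocase, stood at 189 CPM in Acomys (151 to 233) against 32.9 CPM in Mus (21.7 to 47.9), 5.73-fold (3.68 to 9.18) higher, against a ratio of 0.559 in other cells. Cd36 was also 6.41-fold (3.64 to 12.1) higher among venous cells. Scarb1, the HDL receptor, stood at 595 CPM in Acomys (526 to 669.9) against 244 CPM in Mus (211 to 280.3), 2.44-fold (2.02 to 2.94) higher, but it was 14.3-fold higher in other cells. Gpihbp1, which anchors lipoprotein lipase on capillaries, stood at 74.6 against 165 CPM, 2.21-fold (1.51 to 3.32) lower, and in Mus 88 of its 135 UMIs lay in lymphatic cells. In venous cells it stood at 41.7 CPM in Acomys against 40.5 CPM in Mus.

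Basement membrane and matrix genes had 6 of 13 measured members within 2-fold, near the share over all measured genes, with 6 lower and 1 higher. The higher one was Mgp at 9417 CPM in Acomys (9137 to 9703) against 1822 CPM in Mus (1731 to 1917). It was 5.17-fold (4.87 to 5.49) higher in endothelial and 18.7-fold in other cells. Sparc, a collagen-binding protein, stood at 715 against 833 CPM and Col18a1, the source of endostatin, at 125 against 116 CPM. Igfbp7, a vascular matrix protein, stood at 707 CPM in Acomys (632 to 788) against 2349 CPM in Mus (2245 to 2456), 3.32-fold (2.95 to 3.75) lower. Its classes were reversed between species, with 3558 CPM in lymphatic and 369 CPM in venous cells of Acomys, against 527 and 3446 CPM in those of Mus. The lymphatic level of Acomys rests on 10 cells of unequal depth. Hspg2, the proteoglycan perlecan, stood at 2.19 against 131 CPM, with 1 UMI in Acomys. Of 5 measured integrins, 3 were lower, including Itga6, a laminin receptor subunit (4.39 against 215 CPM, against 9.97-fold lower in other cells), while the shared beta chain Itgb1 stood at 191 against 281 CPM.

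Clotting genes had 4 of 8 measured members within 2-fold (median -0.06, and 0.68 in other cells), near the share over all measured genes. Vwf stood at 996 against 715 CPM and Thbd, the anticoagulant thrombomodulin, at 235 against 205 CPM. Procr, the protein C receptor, stood at 2.19 against 212 CPM with 1 UMI in Acomys, 96.7-fold (17.1 to 3843) lower, against a ratio of 3.29 in other cells. Plat, the tissue plasminogen activator, stood at 85.6 against 28.1 CPM, 3.05-fold (1.78 to 5.35) higher, against 0.52 in other cells. Thrombomodulin thus stood near equal in the libraries while Procr was nearly undetected in Acomys endothelial cells.

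Interferon-linked genes were the list furthest to the Acomys side, with 4 of 8 measured at least 2-fold higher, 0 lower and a median of 1.41, beside 1.24 in other cells and 0.82 in venous cells. Isg15, a ubiquitin-like modifier, stood at 162 CPM in Acomys (128 to 204) against 26.8 CPM in Mus (16.8 to 40.6), 6.05-fold (3.72 to 10.2) higher, against a ratio of 0.675 in other cells. Bst2, the virus-tethering protein tetherin, stood at 775 CPM in Acomys (696 to 859.9) against 196 CPM in Mus (167 to 229), 3.94-fold (3.26 to 4.78) higher, against 6.42 in other cells. Irf7, a regulator of interferon genes, stood at 50.5 against 9.76 CPM, 5.17-fold (2.23 to 13.4) higher. The membrane proteins Ifitm2 (3323 against 3010.3 CPM) and Ifitm3 (6761 against 4333 CPM), close copies whose counts can be split, and the class I chain B2m (2467 against 1439 CPM) lay within 2-fold. Isg15 and Psmb9 differed more in endothelial than in other cells, whereas Bst2 and Ifitm3 differed more in other cells.

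Mesenchymal genes linked to endothelial transition had 7 of 8 measured members lower and 0 higher, beside 39.3% lower over all measured genes. Their median log2 ratio was -2.84 (-0.58 in other cells). In venous cells 2 of 4 measured members were lower and 0 higher, with a median of -2.15. Vim, the intermediate filament vimentin, stood at 2423 CPM in Acomys against 4132 CPM in Mus. Tagln, an actin-binding smooth muscle protein, stood at 15.4 against 185 CPM, with 7 UMIs in Acomys and 152 in Mus. Tagln also marks mural cells. It held 7 of 16 UMIs of the 9 mural genes in Acomys and 152 of 182 in Mus endothelial cells, and no other mural gene reached the minimum. The mural sum was 35.1 CPM in endothelial and 50.6 CPM in other cells of Acomys, and 222 and 40.9 CPM in those of Mus, with Rgs5 at 0 UMIs in endothelial cells of both.

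RNA of other cell types was present in endothelial cells, most of it keratins. The 9 keratinocyte genes in both lists summed to 22777 CPM in endothelial and 92170 CPM in other cells of Acomys, and to 19460 and 65306 CPM in those of Mus. These endothelial sums are 0.350 of the level in the free RNA of barcodes of 1 to 10 UMIs in Acomys (0.270 to 0.740 per gene) and 0.380 in Mus (0.324 to 0.504). The 4 sebocyte genes, which include lipid genes that other cells also use, summed to 287 CPM in endothelial and 341 CPM in other cells of Acomys, and to 891 and 723 CPM in those of Mus. The 8 fibroblast genes summed to 173 CPM in endothelial and 278 CPM in other cells of Acomys, and to 472 and 288 CPM in those of Mus. Sebocyte, fibroblast and mural sums thus lay above those of other cells in Mus and below them in Acomys. The 7 macrophage and dendritic genes summed to 35.1 and 111 CPM, and the 4 T cell genes to 41.7 and 12.2 CPM in Acomys and Mus endothelial cells. Pdgfra, a defining fibroblast gene, had 0 and 1 UMIs. Col1a1, the main collagen of fibroblasts, had 0 UMIs in Acomys and 41 in Mus endothelial cells. With free RNA taken off at the level estimated from the keratins, 755 genes passed 2-fold on the Acomys side and 2301 on the Mus side, against 655 and 2048 without that step.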

How the data were processed

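Per the submitters' processing notes, the authors deposited UMI counts made with Cell Ranger 2.2.0 and genome build mm10; the Acomys gene list follows another annotation, and no build for it is given in the sources used here. Each matrix held 737280 unfiltered barcodes, with 71042559 UMIs in Acomys and 130039670 in Mus. Doublets were not removed. Counts were summed over endothelial and other cells with Python 3.11.15, numpy 2.4.6, scipy 1.17.1 and pandas 2.3.3, matching symbols without regard to case and adding duplicates. CPM intervals are exact Poisson, ratio intervals exact conditional binomial, and shares Clopper-Pearson; the calculation was tested on simulated data.

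The members, gene lists and vessel classes were chosen with earlier results of these data known. Genes were named as the 25 highest in endothelial over other cells, the 12 furthest higher and the 12 furthest lower in Acomys (at least 10 UMIs over all kept barcodes of each library, and at least 2-fold above other cells in the higher library), ranked by interval bound, leaving out the selecting, ribosomal, mitochondrial, histone, MHC, immunoglobulin, T cell receptor, haemoglobin, Krtap, Lce and Sprr genes. From each list any member could be named, first those of high level or 4-fold apart. Alternatives changed the cell rule, free RNA, scaling, gene minimum and the cells compared. Symbols shared by both lists may name different genes where families differ between the species.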

Additional observations from a re-analysis of the deposited data

Results flagged for a closer look

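Efemp1 stood at 5.56 times the level of other cells in Acomys endothelial cells and at 0.187 times in Mus endothelial cells, so it lay on opposite sides of the other cells in the 2 species. Cytl1 stood at 0.214 times the level of other cells in Acomys and at 14.2 times in Mus. With 1 library per species these differences were not tested.

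Among 8324 Acomys identifiers without a symbol, which the comparisons above do not use, 500 were measured in endothelial cells and 43 (8.6%) were at least 4-fold above other cells, beside 11% of the genes with a shared symbol. ACOCA10068_EIv1_0114630 stood at 621 CPM with 283 UMIs in 151 cells, 104-fold (86.1 to 127) above other cells. ACOCA10068_EIv1_0138510 stood at 72.4 CPM with 33 UMIs in 27 cells, 165-fold (84.4 to 341) above other cells. The sources used here pair neither identifier with a gene name.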

How the results depend on the processing

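The 655 genes at least 2-fold higher in Acomys became 428 with Krt10 under 0.5% and 365 with a minimum of 100 CPM. The 2048 lower genes became 614 with that minimum and 3387 with at least 10 UMIs and no CPM minimum. The 323 Acomys genes at least 4-fold above other cells became 179 with Krt10 under 0.5%. The 247 Acomys endothelial cells became 164 with a minimum of 2000 UMIs, 373 with at least 2 UMIs of the selecting genes, 125 with at least 5, and 100 with Krt10 under 0.5%. The 101 list members lower in Acomys became 58 with a minimum of 100 CPM, an alternative chosen after seeing the data. The other 82 values of these counts stayed within 1.5 times. Free RNA at the level estimated from keratins, chosen after seeing the data, gave 755 higher and 2301 lower genes. Comparing venous cells only, also chosen later, turned the log2 ratio of Fgl2 to 0.65, of Plac8 to -1.13 and of Adm to 0.46; Adm had 0 UMIs in venous cells of both libraries and Plac8 had 0 in Acomys and 1 in Mus, so their values there rest on the prior count. Of 49 named genes, 7 turned sign under some alternative: these 3, and Selp, Erg, Jam2 and Rasa4, whose ratios are under 2-fold. Of 25 list medians, 7 turned sign, each under 2-fold as reported: arterial (0.14, range -3.52 to 0.14), capillary (0.11, -1.10 to 1.32), Notch (-0.26, -1.14 to 0.30), clotting (-0.06, -0.31 to 0.03), lipid uptake (0.72, -0.12 to 0.81), immediate early (0.25, -0.02 to 0.59) and cell cycle (-0.08, -0.37 to 3.90). A move of at least 0.5 on the log2 scale under some alternative was seen in 27 named genes and 17 list medians. The cause of these moves was not tested. Centring shifted ratios by 0.11 on the log2 scale. The median depth of 2497 UMIs a cell in Acomys limits genes of few UMIs to wide intervals. No paired analysis was possible because each species has 1 library and the labels give no replicate numbers.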

Other observations

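Endothelial cells of both species held few cell cycle UMIs. Of 14 proliferation genes in both lists, 4 were measured and none of these lay 2-fold apart: Hmgb2 stood at 472 against 245 CPM, Stmn1 at 257 against 246 CPM, Birc5, an inhibitor of apoptosis needed in mitosis, at 24.1 against 40.3 CPM and the replication helicase subunit Mcm6 at 32.9 against 39 CPM in Acomys against Mus. All 4 were lower in endothelial than in other cells of both libraries, with endothelial over other ratios of 0.263 to 0.658 in Acomys and 0.315 to 0.605 in Mus. With free RNA taken off at the level estimated from keratins the list median turned to 3.90, against -0.08, so this median depends on that step.

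Of 11 measured genes of glycolysis and hypoxia, 7 lay within 2-fold, 2 were higher and 2 lower. Over all measured genes 12.6% were higher and 39.3% lower. Aldoa stood at 1589 against 939.6 CPM, Pkm at 713 against 854 CPM and Ldha at 503 against 674 CPM in Acomys against Mus. Bnip3, a hypoxia-induced mitophagy receptor, stood at 296 against 46.4 CPM, 6.39-fold (4.43 to 9.42) higher in endothelial and 3.36-fold in other cells. Pgk1, which has near-identical copies and so an uncertain count, stood at 345 against 13.4 CPM with a similar gap of 19.2-fold in other cells. Among immediate early genes, Ier3 stood at 549 against 116 CPM, 4.73-fold (3.72 to 6.06) higher in endothelial and 8.45-fold in other cells, while Jun (226 against 190.4 CPM) and Junb (305 against 281 CPM) were near equal. Jund had 0 UMIs in Acomys endothelial cells and 430 in Mus, at least 79.7-fold lower, and was 180.1-fold lower in other cells.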
